A study of Mus musculus with 12 samples.

Results

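Pcdh7, Sorcs3, Baiap2, Adgrl3, Cdh13, Ptprf and St3gal3 are the mouse counterparts of genes that have been named as candidates for attention-deficit/hyperactivity disorder (ADHD) in human genetic studies. They were taken by symbol from a table of 21872 gene symbols, and each of the 7 was found once. RNA had been sequenced from prefrontal cortex (PFC) and striatum (STR) of C57BL/6J mice at postnatal day 24. Mice labelled as the ADHD model had received 6-hydroxydopamine (6-OHDA), a toxin taken up by catecholamine neurons that kills dopamine neurons, and control mice were compared with them. The 4 groups, called lesioned PFC, control PFC, lesioned STR and control STR here, hold 3 libraries each, 12 in all. The labels name no allele and no cell type, each library being made from dissected tissue. The sources used here give neither the dose, route and day of the toxin nor the treatment of the controls. Nothing in the labels ties the 3 libraries of a group to different mice, so each p-value reflects the spread between libraries, which may be technical.

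The genes work mainly at the neuronal surface and the synapse. Pcdh7 encodes a non-clustered protocadherin, an adhesion molecule with cadherin repeats. Cdh13 encodes T-cadherin, which lacks the intracellular part of classical cadherins, is held in the membrane by a lipid anchor and also binds adiponectin. Adgrl3 encodes latrophilin-3, an adhesion G protein-coupled receptor whose ligands on facing membranes include FLRT proteins and teneurins. Ptprf encodes LAR, a receptor tyrosine phosphatase that binds adhesion partners outside the cell and liprins inside it. Sorcs3 encodes a Vps10 domain sorting receptor of the postsynapse. Baiap2 encodes IRSp53, which couples Rac and Cdc42 to the actin skeleton and binds Shank and PSD-95 scaffolds in dendritic spines. St3gal3 encodes a Golgi enzyme that adds sialic acid to galactose on glycan chains.

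Pcdh7, Sorcs3, Ptprf, St3gal3 and Adgrl3 were higher in each lesioned PFC library than in any control one. The 3 windows that the promoter table holds for Adgrl3 lie inside the gene as GENCODE annotates it and are not printed. For the other 4 genes bases before the start annotated by GENCODE are shown from RefSeq, build GRCm38.p6, 5′ to 3′ on the strand of the gene. The stretch of St3gal3 does not reach its GENCODE start at 118134914, and the others do. The stretches are chr5:57717831-57717966 on the plus strand for Pcdh7, chr19:48205775-48206024 on the plus strand for Sorcs3, chr4:118291406-118291647 on the minus strand for Ptprf and chr4:118134947-118135196 on the minus strand for St3gal3. Capitals mark a GC box (GGGCGG, or CCGCCC for the other strand) or a CCAAT box (CCAAT, or ATTGG for the other strand).
Pcdh7: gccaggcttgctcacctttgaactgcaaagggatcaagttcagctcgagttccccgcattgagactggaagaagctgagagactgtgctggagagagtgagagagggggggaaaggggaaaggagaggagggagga
Sorcs3: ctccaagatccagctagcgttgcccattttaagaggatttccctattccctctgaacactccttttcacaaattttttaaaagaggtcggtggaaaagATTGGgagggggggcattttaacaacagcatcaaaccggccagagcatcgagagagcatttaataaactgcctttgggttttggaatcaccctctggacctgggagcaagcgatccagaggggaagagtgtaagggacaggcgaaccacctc
Ptprf: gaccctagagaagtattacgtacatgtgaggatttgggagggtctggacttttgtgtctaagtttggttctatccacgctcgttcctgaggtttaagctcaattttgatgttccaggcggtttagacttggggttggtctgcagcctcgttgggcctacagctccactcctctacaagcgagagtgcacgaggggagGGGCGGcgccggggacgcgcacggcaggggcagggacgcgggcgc
St3gal3: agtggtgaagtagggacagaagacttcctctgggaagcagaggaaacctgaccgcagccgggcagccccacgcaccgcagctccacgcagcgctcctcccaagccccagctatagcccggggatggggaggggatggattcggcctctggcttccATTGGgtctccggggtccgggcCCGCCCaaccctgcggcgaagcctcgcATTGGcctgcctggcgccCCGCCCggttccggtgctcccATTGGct

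The Pcdh7 stretch of 136 bases held neither motif, Sorcs3 held 1 CCAAT box, Ptprf 1 GC box in 242 bases, and St3gal3 2 GC boxes and 3 CCAAT boxes. In full windows of 250 bases Pcdh7 held neither motif and Ptprf 2 GC boxes. The window of Baiap2, which was lower in lesioned PFC, held 5 GC boxes and 1 CCAAT box. The windows of Adgrl3 held 1, 2 and 1 GC boxes and no CCAAT box. Among all 32851 promoter windows of 250 bases in the table, 32.7% held a GC box and 33.8% a CCAAT box on either strand. The 6 genes with an entry, which exclude Cdh13, have 8 windows. None of the 8 held the cAMP response element TGACGTCA, found in 1.55% of all windows, or the Egr site GCGTGGGCG, found in 0.536%. These are matches of letters in a short window, and nothing about a factor's binding was measured.

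Total counts ranged from 15078631 to 20925452 per library. The summed level of 10 cortical excitatory neuron markers lay between 2669 and 2911 CPM in the 6 PFC libraries and between 98.6 and 955.1 CPM in the 6 STR libraries. That of 16 striatal projection neuron markers was 821 to 1487 CPM in PFC and 2392 to 12942 CPM in STR. Markers of bordering regions were higher in STR as well. The sum of 15 hypothalamic and basal forebrain markers was 81.2 to 126.5 CPM in PFC and 295 to 1325 CPM in STR libraries. CPM are counts scaled to a common library size, here with TMM factors. A pair of striatal libraries stood apart. Lesioned STR replicate 1 had the highest summed level of 16 striatal projection neuron markers, 12942 CPM against 5110 and 7364 in the other lesioned libraries, and the lowest of 15 hypothalamic and basal forebrain markers, 295 CPM against 1217 and 1293. Control STR replicate 2 had 2149 CPM of choroid plexus and ependymal markers against 84.5 and 105.2 in the other controls, and the 955.1 CPM of cortical markers. The striatal values of the 7 genes are therefore also given without these libraries. Since whole tissue was sequenced, fewer cells of a type and less RNA per cell cannot be told apart.

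Baiap2 had the highest level per kilobase of exon in each of the 4 groups. In control PFC its level was 65.6 ± 1.02 CPM per kb (SD, n = 3), above Pcdh7 at 21.4 ± 1.73, St3gal3 at 16.9 ± 0.39, Ptprf at 14.9 ± 0.46, Cdh13 at 10.9 ± 0.997, Sorcs3 at 7.82 ± 0.44 and Adgrl3 at 7.16 ± 0.51. Of neighbours in that order, the libraries of Sorcs3 and Adgrl3 overlapped and the others did not. In lesioned PFC the order was the same by mean, with the libraries of Cdh13 (9.44 ± 0.14 CPM per kb) and Sorcs3 (9.34 ± 0.68) overlapping. In control STR, St3gal3 (14.3 ± 0.64), Ptprf (14.2 ± 1.07), Pcdh7 (12.7 ± 1.97) and Cdh13 (11.4 ± 2.63) each overlapped with the next, as did Adgrl3 (7.81 ± 1.09) and Sorcs3 (6.94 ± 0.57). In lesioned STR, Ptprf (15.9 ± 0.87), Cdh13 (14.9 ± 2.31), Pcdh7 (14 ± 0.81) and St3gal3 (13.8 ± 0.69) overlapped with their neighbours, below Baiap2 at 76.9 ± 29.6 CPM per kb. Lengths are those of all annotated exons of a gene merged, so a gene whose long exons are rarely used has a level that is too low on this scale.

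**Figure D1:**
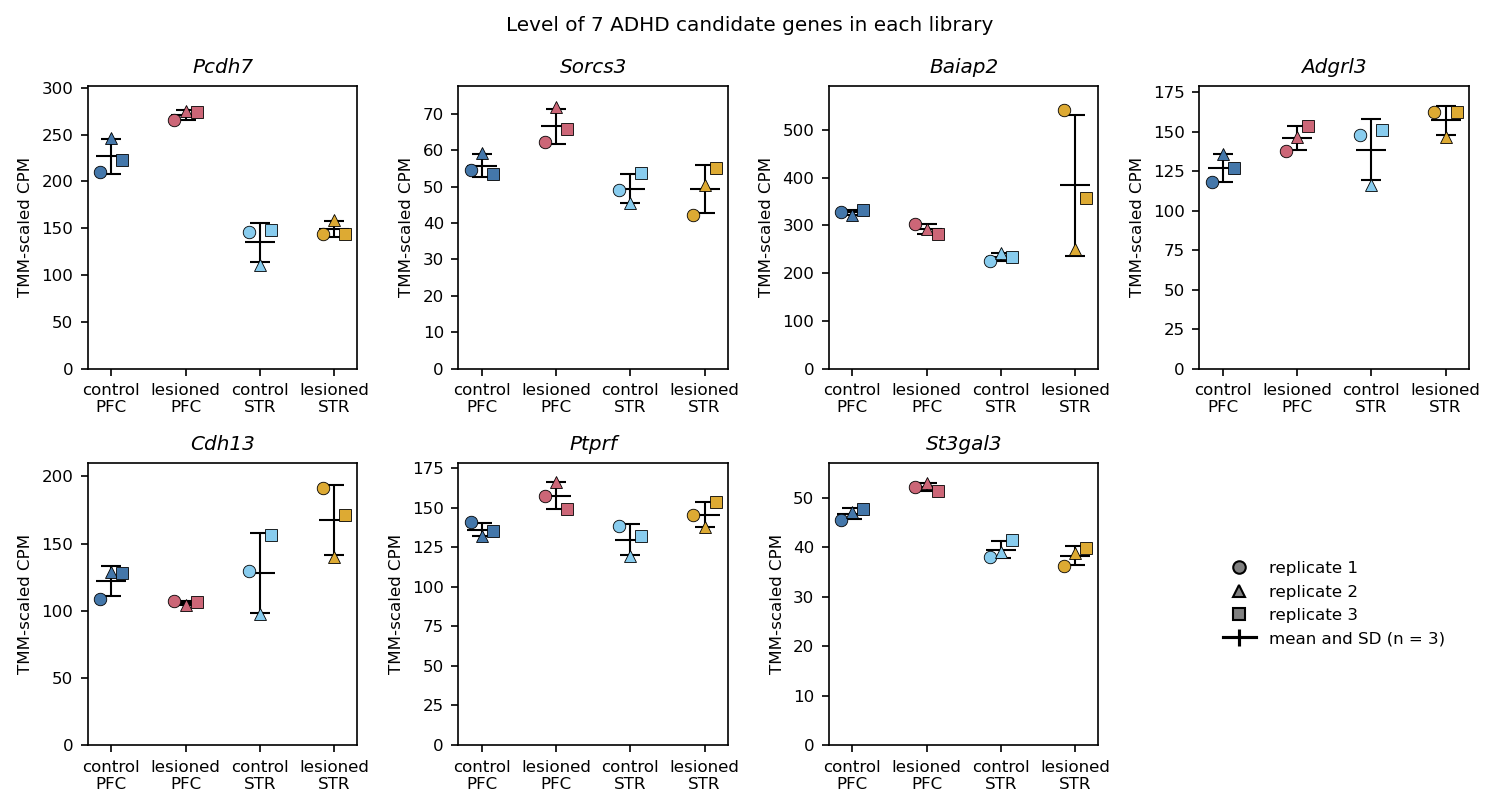
Level of each of the 7 genes in each library, as TMM-scaled CPM on a linear axis from 0, for the 4 groups. Symbols are the 3 libraries of a group and bars the mean and SD. In prefrontal cortex the lesioned libraries lie above the controls for 5 genes and below them for Baiap2 and Cdh13, and lesioned striatum has its widest spread for Baiap2, from 251 to 543 CPM.

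The first comparison was lesioned against control PFC. Pcdh7, Sorcs3 and Ptprf rose and Baiap2 fell, so that 4 of the 7 genes passed an adjusted p of 0.05, against 5.73% of the 14018 genes tested (3.45% higher and 2.28% lower). The changes were small, between 1.15-fold and 1.19-fold for the rises and to 0.89-fold for the fall. For all 7 genes the 3 lesioned libraries lay outside the range of the 3 controls, 5 higher and 2 lower, against 25.3% of all genes tested (14.2% higher and 11.1% lower). The median log2 fold change was 0.19 over the 7 genes and -0.01 over all genes tested. The 7 genes were chosen with earlier results of these data known, so these counts and shares are a description. P-values here are those of the quasi-likelihood test of edgeR on the 6 PFC libraries, adjusted by Benjamini and Hochberg over all genes tested.

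Pcdh7, on chromosome 5 at 57717967 to 58133230 of mm10, had the smallest p of the 7 genes. Its level was 211, 247 and 223 CPM in the control libraries (replicates 1 to 3) and 265, 275 and 274 CPM in the lesioned ones. The lesioned libraries were alike and all above the highest control. The log2 fold change was 0.25 (SE 0.05, edgeR adjusted p = 0.0176).

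Cdh13, the other cadherin-repeat gene, on chromosome 8 at 118283733 to 119324921, went the other way. It was at 109, 128 and 128 CPM in control PFC and at 107, 104 and 106 CPM in lesioned PFC. The lesioned libraries sat just under the lowest control, replicate 1. With a log2 fold change of -0.21 (SE 0.06) it did not pass the test (edgeR adjusted p = 0.0645). Without control PFC replicate 1 the value was -0.28 and passed (edgeR adjusted p = 0.0116).

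Adgrl3, on chromosome 5 at 81020138 to 81825133, had 118, 136 and 127 CPM in control PFC against 138, 147 and 154 CPM in lesioned PFC. The lowest lesioned library was close above the highest control. Its log2 fold change of 0.19 (SE 0.06) did not pass (edgeR adjusted p = 0.0791). With a correction for GC content and exon length it was 0.09 (SE 0.05, adjusted p = 0.391). Adgrl3 has the longest exons of the 7 genes, longer than 98.7% of genes tested.

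Among the receptors with an enzymatic or sorting role, Ptprf, on the minus strand of chromosome 4 at 118208213 to 118291405, had 141, 132 and 135 CPM in control PFC. The lesioned libraries had 158, 166 and 149 CPM, all above the controls. It rose by a log2 fold change of 0.20 (SE 0.05, edgeR adjusted p = 0.0453). Sorcs3, on chromosome 19 at 48206025 to 48805505, had 54.5, 59.3 and 53.4 CPM in control PFC and 62.2, 71.8 and 65.9 CPM in lesioned PFC. Here too no lesioned library reached down to the controls, and the highest of each group was replicate 2. The log2 fold change was 0.24 (SE 0.06, edgeR adjusted p = 0.0430).

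Inside the cell, the spine scaffold gene Baiap2, on chromosome 11 at 119942763 to 120006782, had 328, 322 and 332 CPM in control PFC. In lesioned PFC it had 303, 294 and 282 CPM. The controls were close together and the lesioned libraries all lower. It fell by 0.18 on the log2 scale (SE 0.04, edgeR adjusted p = 0.0364). St3gal3, on the minus strand of chromosome 4 at 117932154 to 118134914, had 45.6, 47.1 and 47.7 CPM in control PFC and 52.1, 53.0 and 51.3 CPM in lesioned PFC. The groups were each tight and did not overlap, but its log2 fold change of 0.15 (SE 0.06) did not pass (edgeR adjusted p = 0.147).

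The direction of each of the 7 genes was the same with each PFC library left out in turn, but the calls were not. The count of the 7 genes that passed was 1 without lesioned PFC replicate 1 (Sorcs3), 0 without replicate 2 or 3, 1 without control PFC replicate 1 (Cdh13), 4 without replicate 2 (Pcdh7, Sorcs3, Baiap2 and Adgrl3) and 1 without replicate 3 (Pcdh7), with 6 or 7 of the 7 at an unadjusted p below 0.05 each time. Of between 14098 and 14154 genes tested, these 6 fits called 342, 195, 310, 536, 1010 and 670 in that order. At an unadjusted p below 0.05 they had 2329, 2196, 2347, 2568, 3034 and 2766 of all genes. With all 6 libraries 803 of 14018 were called. An edgeR fit of all 12 libraries has a larger spread between libraries, a coefficient of variation of 11.3% against 5.78% in PFC alone. There 0 of the 7 genes passed, with 0.206% of 14545 genes called. An unadjusted p below 0.05 was found in that fit for 4 of the 7 and for 1605 of all genes. DESeq2 called 5 of the 7 and limma-voom 4 in the 6 PFC libraries, with 844 and 827 of all 14018 genes called.

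**Figure D2:**
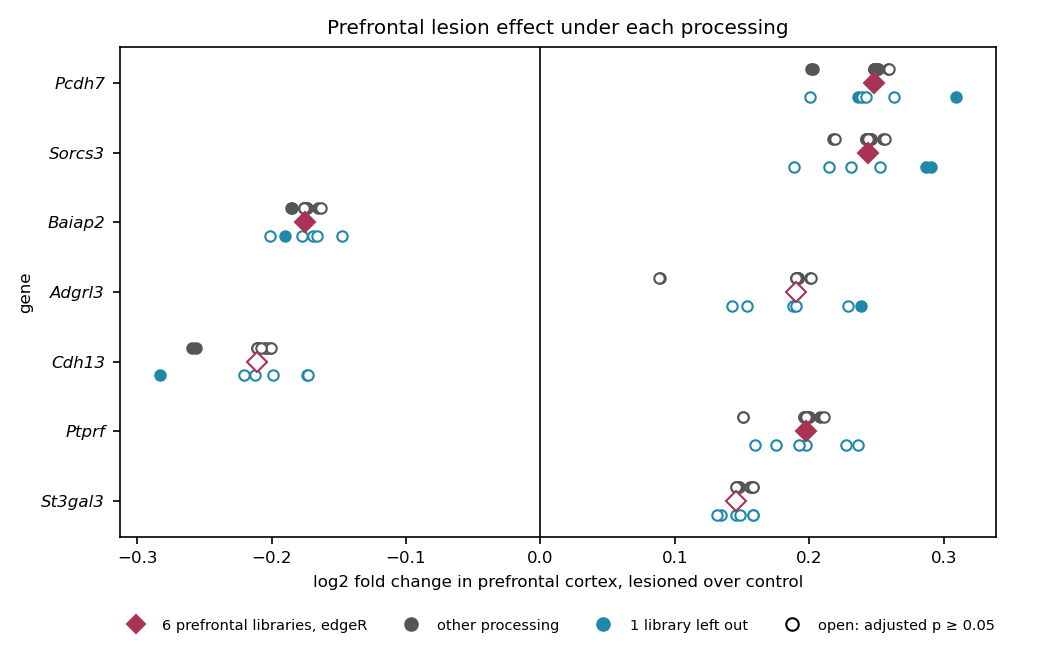
Log2 fold change of the 7 genes in prefrontal cortex, lesioned over control, under each processing. Diamonds are the edgeR fit of 6 libraries, grey circles other processing and blue circles fits with 1 library left out, and filled symbols have an adjusted p below 0.05. No point crosses 0, while the calls of the 4 genes that passed are lost in part of the fits, those of Ptprf in each of the 6 fits with a library left out.

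In PFC the log2 fold changes of all genes also differed by exon length, and summed levels of some cell type markers differed between the groups. Of 3 classes of exon length with like numbers of genes, the longest had a median log2 fold change of 0.03 and the shortest one of -0.04, and 6.54% against 1.67% of their genes were called higher. Adgrl3, Cdh13, Pcdh7 and Ptprf are in the long class, Sorcs3 too, Baiap2 in the middle one and St3gal3 in the short one. With the correction for GC content and exon length, Pcdh7 (0.20, edgeR adjusted p = 0.0386) and Baiap2 (-0.19, adjusted p = 0.0233) passed, Cdh13 now passed (-0.26, adjusted p = 0.0232), and Sorcs3 (0.22, adjusted p = 0.0585) and Ptprf (0.15, adjusted p = 0.0786) did not. The summed level of 10 astrocyte markers was 5886 to 6085 CPM in lesioned PFC and 6513 to 6884 CPM in control PFC, with 6 of the 10 called lower and none at 0. That of 12 endothelial and mural markers was 437.7 to 457.0 against 469.4 to 509.2 CPM, with 3 called lower. Sums of 2 further lists did not overlap. The 10 GABA interneuron markers had 1249 to 1322 CPM in lesioned and 1229 to 1246 CPM in control PFC, with 0 called. The 15 hypothalamic and basal forebrain markers had 81.2 to 89.3 against 89.7 to 126.5 CPM, with 0 of the 6 tested called. Oxt and Sim1 were at 0 in each lesioned library, Oxt also in control replicates 2 and 3 and Sim1 in control replicate 3. The sums of 8 oligodendrocyte precursor markers overlapped, at 656.3 to 687.4 and 674.2 to 748.3 CPM, with 2 called lower. The part of these cells in the results of the 7 genes was not tested.

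Ptprf and St3gal3 are neighbours on chromosome 4, both on the minus strand, 73298 bp apart with Kdm4a, a histone demethylase gene, between them. In PFC both had libraries that did not overlap between groups, while Kdm4a was at 60.0 ± 2.24 CPM in control and 61.4 ± 3.01 CPM in lesioned libraries (SD, n = 3 each; log2 fold change 0.02, SE 0.06, edgeR adjusted p = 0.881). Of other genes beside the pair, Ipo13 was at a log2 fold change of 0.01 (SE 0.06) and Hyi at -0.16 (SE 0.16) in PFC. Neither passed (edgeR adjusted p = 0.971 and 0.607), and Artn was too low in PFC to be tested.

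In striatum the same comparison found 0 of the 7 genes past the threshold by edgeR on the 6 striatal libraries, where 0.0280% of 14288 genes were called. Baiap2 was the 1 gene of the 7 with an unadjusted p below 0.05, as 2475 of the 14288 genes tested had. It was also the 1 whose libraries did not overlap (higher), against 25.8% of all genes tested (13.1% higher and 12.7% lower). DESeq2 and limma-voom called 0 of the 7 genes too. The spread between striatal libraries was wider, with a coefficient of variation of 14.9%, and the SEs of the 7 genes were 0.07 to 0.25 against 0.04 to 0.06 in PFC. The 95% intervals of Pcdh7 (-0.15 to 0.41), Sorcs3 (-0.27 to 0.25), Ptprf (-0.03 to 0.35) and Adgrl3 (-0.08 to 0.44) include the value of the same gene in PFC. Those of Baiap2 (0.12 to 1.30), Cdh13 (-0.05 to 0.82) and St3gal3 (-0.23 to 0.12) do not.

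Baiap2 was at 225, 242 and 234 CPM in control STR. In lesioned STR replicates 1 to 3 it was at 543, 251 and 357 CPM. Lesioned replicate 1 stood far above the others, and replicate 2 was close to the controls. The log2 fold change was 0.71 (SE 0.25, 95% interval 0.12 to 1.30) and did not pass (edgeR adjusted p = 0.237). In the fit of 12 libraries, where 7.15% of genes were called, it was 0.72 and passed (edgeR adjusted p = 0.0470). Without lesioned STR replicate 1 it was 0.37 (edgeR adjusted p = 0.362), and without that library and control STR replicate 2 it was 0.40 (adjusted p = 0.254).

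The order of the lesioned STR libraries in Baiap2 was also that of their striatal projection neuron markers, whose summed level was 12942, 5110 and 7364 CPM in replicates 1 to 3. In control STR these sums were 3512, 2392 and 3872 CPM, an order that Baiap2, at 225, 242 and 234 CPM, did not follow. Cdh13 followed the marker order in both groups, at 192, 140.1 and 171 CPM in lesioned and 129.8, 97.5 and 157 CPM in control STR. All 16 markers had a log2 fold change above 0 (median 1.27) and 13 had libraries that did not overlap, with 0 called by edgeR. Choroid plexus and ependymal markers summed to 51.4 to 72.4 CPM in lesioned and 84.5 to 2149 CPM in control STR, and microglial ones to 459 to 579.3 against 374.6 to 456.5 CPM. The part of these cells in the Baiap2 and Cdh13 values was not tested.

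Cdh13 had the next largest value. It was at 129.8, 97.5 and 157 CPM in control STR and at 192, 140.1 and 171 CPM in lesioned STR. The groups overlapped, since control replicate 3 was above lesioned replicate 2, and control replicate 2 was the lowest of all. The log2 fold change was 0.38 (SE 0.18, edgeR adjusted p = 0.326), and 0.12 without lesioned replicate 1 and control replicate 2.

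Pcdh7 had 146, 111 and 148 CPM in control STR and 144, 159 and 144 CPM in lesioned STR. Control replicate 2 was low and the other libraries were alike across groups. Adgrl3 showed a like picture, with 148, 116 and 151 CPM in control and 162, 147 and 163 CPM in lesioned STR. Their log2 fold changes were 0.13 (SE 0.12, edgeR adjusted p = 0.581; 0.01 without control replicate 2) and 0.18 (SE 0.11, adjusted p = 0.434; 0.07 without control replicate 2), and the groups overlapped for both. Without lesioned replicate 1 and control replicate 2 Pcdh7 and Adgrl3 were both at 0.04.

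Ptprf had 138, 119 and 132 CPM in control STR and 145, 138 and 154 CPM in lesioned STR, with the lowest lesioned library just under the highest control. Its log2 fold change was 0.16 (SE 0.08, edgeR adjusted p = 0.347). Sorcs3, at 49.1, 45.6 and 53.7 CPM in control and 42.1, 50.5 and 55.2 CPM in lesioned STR, was at -0.01 (SE 0.11, adjusted p = 0.961). St3gal3, at 38.0, 39.0 and 41.5 CPM in control and 36.1, 38.8 and 39.8 CPM in lesioned STR, was at -0.05 (SE 0.07, adjusted p = 0.726). For both genes the libraries of the groups lay among each other. Without lesioned replicate 1 and control replicate 2 Ptprf was at 0.11, Sorcs3 at 0.04 and St3gal3 at -0.02.

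**Figure D3:**
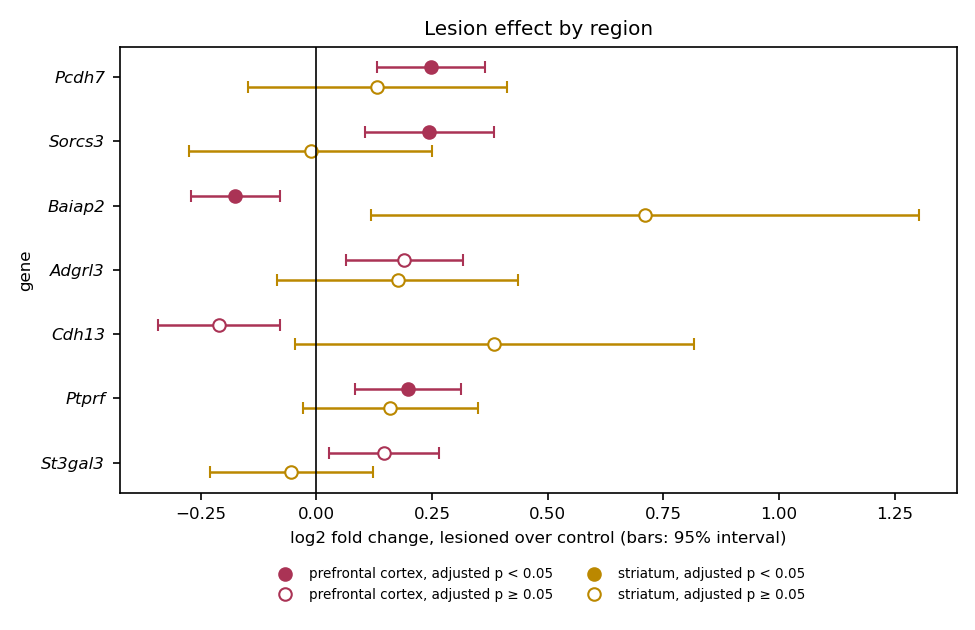
Log2 fold change of the 7 genes, lesioned over control, in prefrontal cortex and in striatum, each from the 6 libraries of the region, with 95% intervals. Filled symbols have an adjusted p below 0.05. The intervals are wider in striatum, and Baiap2 and Cdh13 lie below 0 in prefrontal cortex and above it in striatum.

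Whether the lesion effects differed between the regions was tested as a difference in the fit of 12 libraries, striatum minus PFC. By edgeR 0 of the 7 genes passed, with 0.0825% of 14545 genes called, and 3 had an unadjusted p below 0.05: Baiap2, Cdh13 and St3gal3. Of all 14545 genes 1703 had an unadjusted p below 0.05. DESeq2 and limma-voom called 0 of the 7 as well. Baiap2 had the largest difference, 0.88 on the log2 scale (SE 0.27, 95% interval 0.28 to 1.47, edgeR adjusted p = 0.315), with 3 of 3 lesioned libraries below the controls in PFC and 3 of 3 above them in striatum. The share of all genes with both was not counted. Without lesioned STR replicate 2 the Baiap2 difference was 1.11 and passed (edgeR adjusted p = 0.0317), and without lesioned STR replicate 1 it was 0.55 (adjusted p = 0.227).

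The difference was 0.59 for Cdh13 (SE 0.21, edgeR adjusted p = 0.345), -0.26 for Sorcs3 (SE 0.14, adjusted p = 0.493) and -0.20 for St3gal3 (SE 0.08, adjusted p = 0.381). For Pcdh7 (-0.12), Adgrl3 (-0.02) and Ptprf (-0.05) the 95% intervals were -0.44 to 0.19, -0.32 to 0.28 and -0.26 to 0.17. Without lesioned STR replicate 1 and control STR replicate 2 the differences were 0.58 for Baiap2 (edgeR adjusted p = 0.0841), 0.33 for Cdh13, -0.21 for Sorcs3, -0.17 for St3gal3, -0.21 for Pcdh7, -0.15 for Adgrl3 and -0.09 for Ptprf. The 3 intervals hold 0 and also differences as large as the PFC effects themselves.

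The regions were compared in the same fit of 12 libraries. Hypothalamic and basal forebrain markers were higher in the striatal libraries, as given above, and the part of bordering tissue in these values was not tested. In control mice Pcdh7 and St3gal3 were lower in striatum than in PFC, 2 of the 7 genes, against 42.9% of 14545 genes called in either direction (21.7% higher and 21.3% lower). Pcdh7, with 111 to 148 CPM in control STR against 211 to 247 in control PFC, had a log2 fold change of -0.75 (SE 0.10, edgeR adjusted p = 1.22e-04). St3gal3, with 38.0 to 41.5 CPM against 45.6 to 47.7, was at -0.24 (SE 0.06, edgeR adjusted p = 0.00574). The groups did not overlap for either gene.

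Baiap2 was the third gene whose control libraries did not overlap between regions, with 225 to 242 CPM in striatum and 322 to 332 in PFC, against 54.9% of all genes tested (27.4% higher and 27.5% lower). Its log2 fold change of -0.49 (SE 0.19) did not pass in the fit of 12 libraries (edgeR adjusted p = 0.0592) and passed in the fit of the 6 control libraries (-0.49, edgeR adjusted p = 4.13e-04). It also passed in the fit of 12 libraries without lesioned STR replicate 1 (-0.49, adjusted p = 0.00122) or 2 (-0.49, adjusted p = 0.00551). The other 4 genes overlapped between regions in controls and did not pass, with -0.17 for Sorcs3, 0.13 for Adgrl3, 0.07 for Cdh13 and -0.07 for Ptprf. Without lesioned STR replicate 1 and control STR replicate 2 the count was 4, with Baiap2 and Adgrl3 (0.24, edgeR adjusted p = 0.00909) added, and without control STR replicate 2 alone Adgrl3 passed too (0.24, adjusted p = 0.0288). Of all genes, 7293 of 14632 were called without both libraries and 6197 of 14655 without control STR replicate 2 alone.

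After the lesion 4 of the 7 genes differed between the regions, against 48.4% of all genes tested (24.4% higher and 24% lower). Pcdh7 (-0.87, SE 0.10, edgeR adjusted p = 3.00e-05), St3gal3 (-0.45, SE 0.06, adjusted p = 7.24e-05) and Sorcs3 (-0.43, SE 0.10, adjusted p = 0.00325) were lower in striatum and Cdh13 (0.66, SE 0.15, adjusted p = 0.00326) was higher. The libraries of these 4 genes did not overlap, as in 57.8% of all genes (28.8% higher and 29.0% lower). Cdh13 was at 104 to 107 CPM in lesioned PFC and 140.1 to 192 CPM in lesioned STR. Baiap2, lower in striatum by value in controls, was at 0.39 (SE 0.19, edgeR adjusted p = 0.113) with all libraries, at 0.06 without lesioned STR replicate 1, and at 0.62 without lesioned STR replicate 2, where it passed (adjusted p = 0.00234). Adgrl3 (0.11) and Ptprf (-0.11) did not pass. These comparisons use the libraries of the lesion comparisons above.

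**Figure D4:**
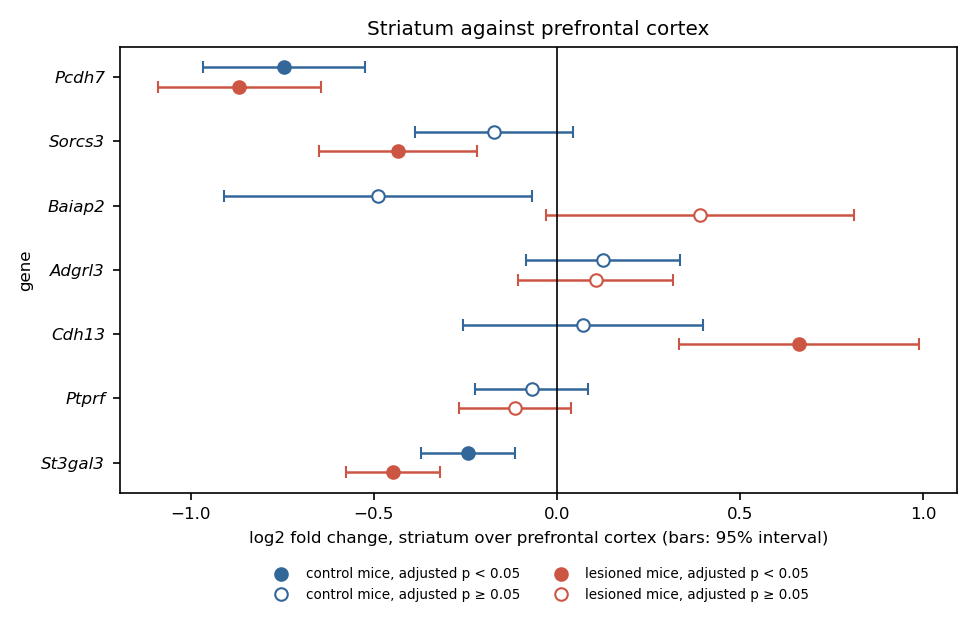
Log2 fold change of the 7 genes, striatum over prefrontal cortex, in control and in lesioned mice, with 95% intervals from the edgeR fit of 12 libraries. Filled symbols have an adjusted p below 0.05. Pcdh7 and St3gal3 are lower in striatum in both, and Sorcs3 and Cdh13 pass in the lesioned mice.

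Relatives, ligands and partners of the 7 genes were described from 8 lists, with the 7 genes themselves left out and edgeR on the 6 PFC libraries as above. The lists too were chosen with earlier results of these data known, so their shares are a description. Latrophilins and their ligands, the molecules around Adgrl3, were called most often: 7 of 18 passed (38.9%, against 5.73% of all genes), 5 higher and 2 lower, with a median log2 fold change of 0.15. The teneurins, large adhesion molecules that bind latrophilins across the synapse, were higher: Tenm1 went from 74.3 ± 3.99 to 96.2 ± 3.78 CPM (SD, n = 3 each; 0.36, SE 0.06, edgeR adjusted p = 0.00281). Tenm3 rose by 0.37 (SE 0.07) and Tenm4 by 0.21 (SE 0.05) on the log2 scale, and Tenm2 was at 0.22 without passing (edgeR adjusted p = 0.0636). Unc5d, a netrin receptor that also binds FLRT proteins, rose from 56.5 ± 2.93 to 73.1 ± 2.30 CPM (0.36, SE 0.06, edgeR adjusted p = 0.00337), and the neurexin gene Nrxn3 from 254 ± 15.6 to 311 ± 7.89 CPM (0.28, SE 0.05). Flrt3, which encodes a latrophilin ligand, fell by 0.49 (SE 0.09) and the endothelial relative Adgrl4 by 0.44 (SE 0.11). Tenm3, Tenm4, Flrt3 and Adgrl4 were picked out after their values were seen.

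The latrophilin paralogs Adgrl1 (0.04, SE 0.04) and Adgrl2 (0.09, SE 0.05) did not pass (edgeR adjusted p = 0.634 and 0.317). Tenm1 and Unc5d were called with each PFC library left out in turn. The count of 7 in this list ranged from 2, without lesioned PFC replicate 2, to 8, without control PFC replicate 2. With the correction for GC content and exon length, Tenm1 (0.28), Unc5d (0.33) and Nrxn3 (0.21) remained called. In the fit of 12 libraries 0 of the 188 listed genes tested were called and 27 had an unadjusted p below 0.05. Of all 14545 genes tested there 30 were called and 1605 had an unadjusted p below 0.05.

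Among the partners of IRSp53, the product of Baiap2, 3 of 20 genes passed (15%), 1 higher and 2 lower. Mtss2, which encodes another protein with an I-BAR domain, fell from 254 ± 3.73 to 179 ± 11.8 CPM (SD, n = 3 each; -0.52, edgeR adjusted p = 2.09e-04). Dlg4, the PSD-95 gene, fell from 1173 ± 12.6 to 1014 ± 13.0 CPM (-0.22, SE 0.04). Shank1, another postsynaptic scaffold, rose from 764 ± 28.3 to 871 ± 42.7 CPM (0.18, SE 0.05). Mtss2 and Dlg4 were called with each PFC library left out in turn, while Shank1 was called in 1 of these 6 fits, that without control PFC replicate 2, and not with the correction for GC content and exon length (0.12, edgeR adjusted p = 0.231).

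Among relatives of the other genes between 3.85% and 9.09% of a list passed, around the 5.73% of all genes tested. Of 22 LAR-type phosphatases and partners, Ppfia3, a liprin, rose (0.18, SE 0.05) and Caskin2 fell (-0.33), and the LAR paralogs Ptprs (0.16, edgeR adjusted p = 0.0628) and Ptprd (0.12, adjusted p = 0.168) did not pass. Of 16 Vps10 receptors and ligands 1 passed, the sorting receptor Sorl1, which rose from 482 ± 42.4 to 582 ± 21.9 CPM (0.26). Sorcs1 was at 0.18 (edgeR adjusted p = 0.123) and Sorcs2 at 0.01 (adjusted p = 0.960). Of 23 cadherins and catenins, Cdh6 rose (0.32) and the beta-catenin gene Ctnnb1 fell (-0.16). Of 14 genes of the protocadherin list, which includes the phosphatase partner Ppp1ca, Pcdh1 rose (0.22), and of 26 genes of sialic acid metabolism Neu2, a sialidase, rose (0.52). Leaving out single libraries took the counts of these 5 lists to between 0 and 3, with 0 in each of the 5 without lesioned PFC replicate 2.

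Of 46 other genes with reported links to ADHD 7 passed (15.2%, against 5.73% of all genes), 4 higher and 3 lower, where 3.45% and 2.28% of all genes were. Ddc, the enzyme that makes dopamine and serotonin from their precursors, fell from 8.03 ± 0.55 to 4.66 ± 0.58 CPM (SD, n = 3 each; -0.80, called with each PFC library left out in turn). Git1, a signalling scaffold, rose from 394 ± 1.62 to 468 ± 19.7 CPM (0.24), and Dusp6, which encodes an ERK phosphatase, from 87.9 ± 5.93 to 109.5 ± 5.44 CPM (0.31). The others, named after their values were seen, were the glutamate receptor gene Grm7 (0.26) and the SNARE gene Snap25 (0.17), which rose, and the serotonin receptor gene Htr1b (-0.47) and the desaturase gene Fads2 (-0.19), which fell. This count ranged from 1, without lesioned PFC replicate 2, to 7 with single libraries left out, and was 3 without lesioned PFC replicate 1 or 3.

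**Figure D5:**
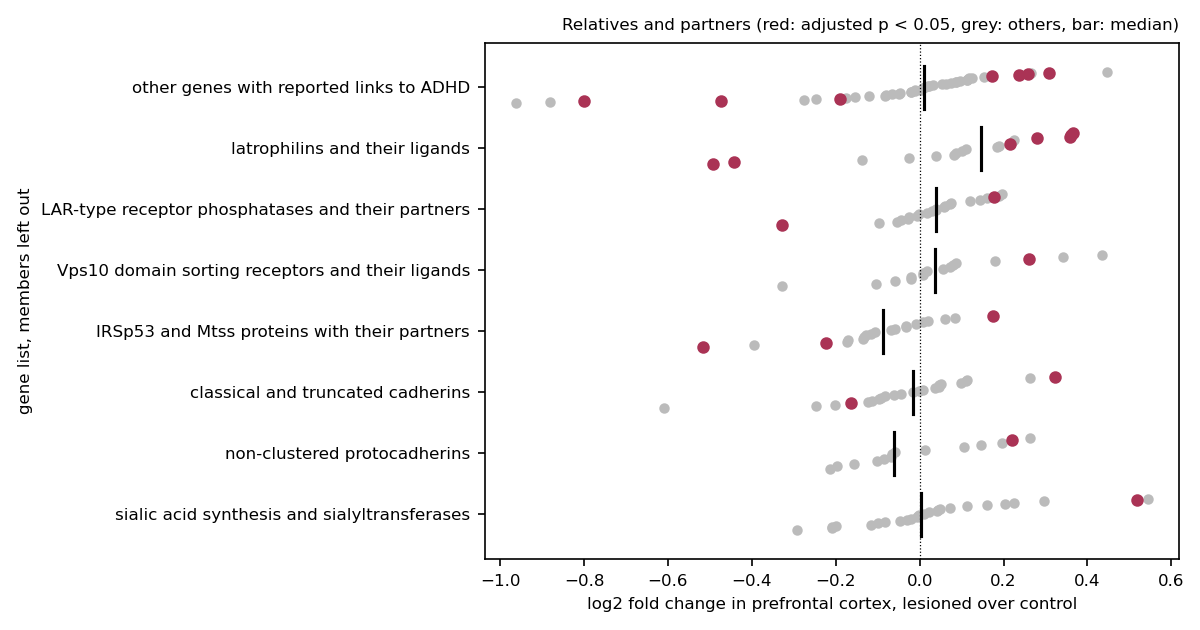
Log2 fold change in prefrontal cortex, lesioned over control, of each tested gene in 8 lists of relatives and partners, with the 7 genes left out. Red points have an adjusted p below 0.05, grey points do not, and black bars are list medians. The latrophilin list has the highest median, 0.15, and 7 of 18 genes called.

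In striatum edgeR called 0 of the 187 listed genes tested, against 0.0280% of all genes, with 51 at an unadjusted p below 0.05. Of all 14288 genes 2475 were at an unadjusted p below 0.05. DESeq2 called 12 of the listed genes, with 529 of all 14288 genes called, and limma-voom 0. The fit of 12 libraries called 23 of 188, against 7.15% of all genes. With lesioned STR replicate 1 and control STR replicate 2 left out, edgeR on the other 4 striatal libraries called 3 of 189, with 55 of all 14350 genes called.

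The smallest p of the listed genes in striatum was that of Cdh1, the E-cadherin gene of epithelia, at 1.93 ± 1.05 CPM in control STR (SD, n = 3; edgeR adjusted p = 0.0957). Its mean in lesioned STR, 0.057 ± 0.059 CPM, is below what 3 counts in a library amount to. Mtss2 was at 306 ± 25.9 CPM in control and 200 ± 23.3 CPM in lesioned STR (SD, n = 3 each; -0.62, edgeR adjusted p = 0.135). Without the pair of libraries named above both Cdh1 (edgeR adjusted p = 0.0455) and Mtss2 (-0.60, adjusted p = 0.0397) passed.

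Next by p were the striatal neuron gene Drd2 (1.55, edgeR adjusted p = 0.164), Lrfn5, which encodes a synaptic adhesion partner of LAR-type phosphatases (-0.33, adjusted p = 0.166), the sialyltransferase gene St3gal1 (-0.45, adjusted p = 0.166) and Foxp1 (1.26, adjusted p = 0.166). Drd2 and Foxp1 are on the ADHD list and among the projection neuron markers given above, and were at 0.96 and 0.80 without that pair of libraries. Tenm3, at 137 ± 11.9 and 179 ± 12.8 CPM, had a log2 fold change of 0.38 (edgeR adjusted p = 0.181). Sorcs2, at 68.1 ± 6.75 and 108 ± 35.2 CPM, was at 0.66 (edgeR adjusted p = 0.221) and at 0.38 without lesioned STR replicate 1.

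Between the regions in controls the lists were called at 50% to 77.8%, against 42.9% of all genes. In the latrophilin list 8 genes were higher and 6 lower in striatum, with Tenm3 at 0.73 (SE 0.09) and Flrt2 at -0.98 (SE 0.09). In the LAR-type list 5 were higher and 8 lower, among them Slitrk6 at 3.29 (SE 0.26), Ppfia4 at 1.13 (SE 0.09) and Ppfia3 at -0.83 (SE 0.07). In the Vps10 list 3 were higher and 6 lower, with the neurotrophin receptor gene Ngfr (5.69), known from forebrain cholinergic neurons, far higher in striatum and Sorl1 lower (-0.79). In the IRSp53 list 7 were higher and 6 lower, with Shank1 at -1.25 (SE 0.12) and Shank2 at -1.02 (SE 0.09) lower, as Baiap2 was by value, and the Rac activator gene Tiam1 higher at 0.69 (SE 0.10).

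In the cadherin list 4 genes were higher and 8 lower in striatum than in PFC of controls, with Cdh12 at -1.18 (SE 0.16) and Cdh10 at -0.93 (SE 0.09) lower and the catenin gene Ctnna1 higher at 0.42 (SE 0.07). Protocadherins had 7 higher and 2 lower, with Pcdh8 (0.86) and Pcdh17 (0.69) higher and Pcdh1 lower (-0.52), the last in the direction of Pcdh7. In sialic acid metabolism 7 were higher and 10 lower, with the sialyltransferase genes St6gal2 (-1.72), St3gal5 (-1.29) and St3gal1 (-0.88) all further from 0 than St3gal3. Of the other ADHD genes 19 were higher and 16 lower, with Mef2c at -2.77, Snap25 at -1.14 and Nos1 at 1.08.

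Genes with the pattern most like that of each member over the 12 libraries were looked up among 13406 genes by Pearson's r of log2 CPM, as a description. These libraries share 4 groups, so region and lesion both enter the values. For Pcdh7 the closest was Mgat5 (r = 0.99), for St3gal3 H2-T23 (0.99), for Baiap2 Prelid3a (0.97), for Sorcs3 Ttll1 (0.95), for Cdh13 Fam241a (0.95), for Adgrl3 Ttc9 (0.94) and for Ptprf Ppip5k1 (0.91). The third closest genes had values between 0.89 and 0.99.

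The annotation places exons of Gm16054 on the opposite strand over 1582 exon bases of Adgrl3, and exons of 4932441J04Rik over 2235 exon bases of Pcdh7. Neither antisense gene is a row of the table. The libraries were stranded, but the sources used here do not give the strand setting of the counting, so reads of these pairs cannot be told apart and the levels of Adgrl3 and Pcdh7 are uncertain to that extent.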

How the data were processed

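Per the submitters' processing notes reads were aligned to mm10 with STAR 2.7.1a and counted with featureCounts. The authors deposited 1 table of raw counts per gene symbol for the 12 libraries, each read as 101 bp pairs (500 ng total RNA, lowest RIN 8.9), per the labels' protocols. The sources used here give neither the annotation, the strand setting nor the handling of multi-mapped reads. Among 18140 symbols above 0, 1830 hold multiples of 11 alone and are at 0 in lesioned PFC replicate 1. They carry 0.144% of counts, include none of the 7 genes, and were left out of the tests.

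Counts were tested with edgeR 4.0.16 in R 4.3.3 (filterByExpr, TMM, quasi-likelihood F test, two-sided). Lesion effects were fitted on the 6 libraries of a region (4 residual degrees of freedom), regions and the difference of lesion effects on all 12 (8 residual degrees of freedom). Calls are at an adjusted p below 0.05 over all genes tested. The standard error is the absolute log2 fold change over the root of F. CPM use TMM-scaled library sizes. Exon lengths and positions are from GENCODE vM21 (GRCm38, the assembly of mm10). A total of 3 counts in a library corresponds to 0.148 to 0.204 CPM, counting error alone. The fits were tested on simulated data with known changes.

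The 7 genes and the gene lists were chosen with earlier results of these data known. The text names the 7 genes, up to 3 genes of each list by smallest p per comparison, the gene most like each member and the neighbours of Ptprf and St3gal3, with exceptions marked. Some genes that this rule would name are not reported here. Alternatives were DESeq2 1.42.0, limma-voom (limma 3.58.1) with and without group weights, RLE and upper-quartile factors, no filter, at least 1 CPM in 3 libraries, the rows of multiples of 11 kept, the other set of libraries, a replicate block, a correction for GC content and exon length by splines with 5 degrees of freedom, and each library left out. Leaving out lesioned STR replicate 1 and control STR replicate 2 together was added after seeing the data.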

Additional observations from a re-analysis of the deposited data

Results flagged for a closer look

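Baiap2 was the one gene of the 7 whose lesioned libraries lay all below the controls in prefrontal cortex and all above them in striatum. Of all genes tested, 11.1% lay all lower in prefrontal cortex and 13.1% all higher in striatum, and the share with both was not counted. The difference of the lesion effects of Baiap2, 0.88 on the log2 scale, was tested as an interaction in the edgeR fit of 12 libraries and did not pass (adjusted p = 0.315). It ranged from 0.55 to 1.11 with single libraries left out. The summed level of striatal projection neuron markers was highest in the lesioned striatal library with the most Baiap2 and lowest in the control striatal library with the most Baiap2. The part of that level in the difference was not tested.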

How the results depend on the processing

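The number of the 7 genes called for the lesion effect in prefrontal cortex was 4 with edgeR. It was 2 with the rows of multiples of 11 kept, 0 in the fit of 12 libraries, 2 with the replicate block, and 0 to 4 with single libraries left out. Of all genes, 803 of 14018 were called by edgeR, 636 of 14246 with those rows kept and 30 of 14545 in the fit of 12 libraries. Fits with single libraries left out called 195 to 1010 genes. In striatum the number of the 7 genes called was 0, and 1 in the fit of 12 libraries. For the difference of lesion effects it was 0, and 0 to 1 with single libraries left out. For the regions in controls it was 2, 3 (with Baiap2 added) with DESeq2, group weights, the fit of 6 libraries, the block, the GC and length correction or both, 2 to 3 with single libraries left out, and 4 without lesioned STR replicate 1 and control STR replicate 2, an alternative chosen after seeing the data. Of all genes, 6243 of 14545 were called there with 12 libraries and 7293 of 14632 without that pair. Some effects near 0 changed sign. In striatum St3gal3 was at 0.00135 with the GC and length correction and at 0.00104 with the block and that correction. Sorcs3 was at 0.0360 there without the pair of libraries named above, and between -0.0930 and 0.0868 with single libraries left out. With single libraries left out, the difference of lesion effects lay between -0.13 and 0.0475 for Adgrl3 and between -0.10 and 0.00180 for Ptprf, and Cdh13 lay between -0.10 and 0.23 between regions in controls, where it was at -0.00819 with the block and the correction. The cause was not tested. Whether replicate numbers pair the libraries is not given, and correlations of same-numbered deviations cannot exclude it. They lay between -0.00442 and 0.0921 in 6 pairs of the 2 regions of a treatment. In 6 pairs of lesioned and control libraries of a region they lay between -0.11 and 0.0333. None of the 12 was above 0.1. The block left 634 genes called in prefrontal cortex, against 803 without it. Upper-quartile factors split the region calls in controls into 3674 higher and 2639 lower, against 3149 and 3094. Over all genes edgeR called 4 in striatum, DESeq2 529 and limma-voom 0.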
